A study of Homo sapiens with 54 samples.

Results

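Transcripts of 10 Wnt pathway genes were followed in BT549 cells: the antagonist genes DKK1, DKK3 and SFRP1, the agonist genes RSPO2, RSPO3 and NDP, the ligand genes WNT2B, WNT5A and WNT5B, and the target gene AXIN2. They were picked by symbol from the 26517 genes of the deposited count tables, and all 10 passed the filter on low counts in each experiment. All but AXIN2 encode secreted proteins, and AXIN2 encodes an intracellular inhibitor of the pathway. RSPO2 was higher and AXIN2 was lower with the glucocorticoid dexamethasone (DEX) in all 9 comparisons with and without hormone. RSPO3 and NDP were lower with DEX in 6 of these 9 comparisons each, and their largest changes were at 24 h. The DEX effect on DKK1 was larger in cells depleted of the transcription factor GATA6 than in control cells. The level of DKK1 was lower in the depleted cells both with and without DEX. DEX also raised DKK1 in cells treated with a chromatin remodelling inhibitor but not in cells given the solvent, and these effects differed.

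Wnt proteins are secreted lipid-modified ligands that bind Frizzled receptors, and with the co-receptors LRP5 and LRP6 they protect beta-catenin from destruction so that it can activate genes together with TCF/LEF factors. R-spondins bind LGR receptors and keep Frizzled receptors at the cell surface, and norrin (encoded by NDP) activates FZD4 although it is no Wnt protein. DKK1 blocks LRP5 and LRP6, and SFRP1 binds Wnt ligands outside the cell. AXIN2 is switched on by beta-catenin in many tissues and feeds back on the pathway. WNT5A and WNT5B are known mainly for signalling that does not use beta-catenin and are often expressed by mesenchymal breast cancer cells.

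BT549 is a line from a human breast tumour that lacks the hormone receptors and ERBB2 amplification of other breast cancers. RNA sequencing of 54 libraries in 18 groups of 3 formed 3 experiments, all in this line. In the GATA6 experiment, cells carried siGATA6 (a pool of siRNAs against GATA6) or siCtl (a control siRNA) for 72 h and then received 500 nM DEX or vehicle for 2 h, which gave siGATA6 with DEX, siGATA6 with vehicle, siCtl with DEX and siCtl with vehicle. In the BRM014 experiment, cells received 10 µM BRM014 or its solvent DMSO, each with or without 500 nM DEX, which gave DEX+BRM014, BRM014, DEX+DMSO and DMSO at 4 h and the same groups at 24 h. BRM014 blocks the enzymes that drive SWI/SNF, a complex that moves nucleosomes. Only the sample labels name 24 h, while the treatment protocol gives shorter times and the BRM014 dose. In the AP-1 experiment, cells carried siFRA1 (against FOSL1, which encodes FRA1), siJUN or siCtl. Each was given 500 nM DEX or vehicle for a time that its labels do not state. BT549 is a single line, and knockdown lowers a transcript without removing it. The sample titles call the replicates of the GATA6 and BRM014 experiments biological. For the AP-1 libraries the labels say only that they are replicates, so their p-values measure the spread between these libraries, which may be technical.

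The targeted transcripts were lower in the groups named for them: GATA6 was at 10.3 ± 0.164 CPM in siGATA6 against 85.2 ± 6.51 CPM in siCtl with vehicle. FOSL1 was at 46.8 ± 5.22 CPM in siFRA1 against 172 ± 11.6 CPM in siCtl, and JUN was at 99.1 ± 13.1 CPM in siJUN against 280.4 ± 12 CPM in siCtl (mean ± SD, n = 3 each). Other treatments also moved FOSL1. DEX lowered it in siCtl cells of the AP-1 experiment (log2 fold change -1.52, SE 0.18), so siFRA1 with DEX is set against a control already lower in FOSL1. BRM014 lowered it without DEX (-1.60 at 4 h and -1.94 at 24 h), and siGATA6 raised it (0.72 with vehicle and 1.04 with DEX). CPM is the read count relative to the library's scaled total, on its usual scale. Unscaled totals were between 12888724 and 30530736 counts for GATA6 libraries, between 13243316 and 29339329 for BRM014 libraries, and between 10186607 and 16352524 for AP-1 libraries. ESR1 and PGR, which encode hormone receptors that triple-negative tumours lack, reached at most 0.163 and 0.0504 CPM, and ERBB2 was between 51.8 and 92.1 CPM. The epithelial marker EPCAM reached at most 0.365 CPM in any library. Other epithelial markers were detected in every library, with CDH1 at up to 16.6, KRT19 at up to 17.8, KRT8 at up to 8.44 and KRT18 at up to 5.10 CPM. The libraries farthest from their group were DEX+DMSO 24 h replicates 2 and 3 and BRM014 24 h replicate 2. The biological coefficient of variation was 18.8% in the BRM014, 9.80% in the AP-1 and 5.57% in the GATA6 experiment. The AP-1 libraries are labelled as polyA RNA and the others as total RNA, so levels were not compared between experiments. In bulk RNA, fewer cells that make a transcript cannot be told apart from less transcript per cell.

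Promoter windows of RefSeq (GRCh38.p14, 300 bases from 250 before the transcription start) were given for DKK1, RSPO3, WNT2B, WNT5A and WNT5B. Those of DKK1 and WNT5A are shown because these members had a DEX response that differed between siGATA6 and siCtl cells, and that of RSPO3 because it had the largest fall with DEX. They are read 5′ to 3′ on the strand of the gene, in lower case since none of the motifs searched was found in them.
DKK1 (chr10:52314031-52314330, plus strand): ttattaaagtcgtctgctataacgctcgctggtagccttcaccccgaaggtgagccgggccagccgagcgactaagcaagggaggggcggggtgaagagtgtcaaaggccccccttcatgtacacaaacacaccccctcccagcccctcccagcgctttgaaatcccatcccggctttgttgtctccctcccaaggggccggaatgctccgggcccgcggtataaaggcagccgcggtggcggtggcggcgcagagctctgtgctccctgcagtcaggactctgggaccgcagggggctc
WNT5A (chr3:55487257-55487556, minus strand): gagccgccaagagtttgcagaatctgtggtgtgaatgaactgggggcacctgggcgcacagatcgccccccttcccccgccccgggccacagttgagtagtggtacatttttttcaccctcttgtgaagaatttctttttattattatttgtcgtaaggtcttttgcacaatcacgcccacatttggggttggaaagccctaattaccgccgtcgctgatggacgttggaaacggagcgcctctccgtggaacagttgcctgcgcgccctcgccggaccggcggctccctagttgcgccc
RSPO3 (chr6:127118421-127118720, plus strand): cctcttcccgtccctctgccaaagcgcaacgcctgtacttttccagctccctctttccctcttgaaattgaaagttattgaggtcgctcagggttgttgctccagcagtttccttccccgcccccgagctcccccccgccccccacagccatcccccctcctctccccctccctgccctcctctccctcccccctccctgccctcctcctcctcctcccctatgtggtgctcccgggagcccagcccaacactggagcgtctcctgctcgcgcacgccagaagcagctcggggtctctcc
The motifs were the hexamer TGTTCT of the glucocorticoid receptor, the full element of AGAACA, NNN and TGTTCT (which contains that hexamer), the GATA site AGATAA, the AP-1 site TGANTCA and the TCF/LEF site CTTTGAT, each on both strands. The single match among the 5 windows was the hexamer in WNT2B, read as AGAACA and starting 5 bases downstream of the transcription start. Of 35116 promoter windows in all, 14.8% held the hexamer, 1 window the full element, 10.3% the GATA site, 7.71% the AP-1 site and 2.62% the TCF/LEF site. No match says only that these letters are not in these 300 bases. The windows of WNT5A and of WNT5B (chr12:1616806-1617105) lie inside the gene bounds given below and not at the outer 5′ ends. Other starts of these genes were not searched.

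All 10 genes are protein-coding, and the reference annotation of GRCh38 puts DKK1 on chromosome 10 (52314296 to 52318042), DKK3 on chromosome 11 (11963106 to 12009769), RSPO2 on chromosome 8 (107899316 to 108083648) and RSPO3 on chromosome 6 (127118604 to 127197765). NDP lies on chromosome X (43948776 to 43973504), WNT2B on chromosome 1 (112466541 to 112530165), WNT5A on chromosome 3 (55465715 to 55490539) and WNT5B on chromosome 12 (1529891 to 1647243). SFRP1 lies on chromosome 8 (41261958 to 41309497) and AXIN2 on chromosome 17 (65528563 to 65561647). Several members overlap a gene on the opposite strand, DKK1 with PRKG1-AS1, NDP with NDP-AS1, WNT5A with WNT5A-AS1, WNT2B with ST7L and WNT5B with FBXL14. The strand setting of the counting is not given in any source used here, so reads of such pairs cannot be told apart. The partners in the tables were low beside DKK1 and WNT5B, with PRKG1-AS1 at 0.220 to 2.60 CPM and FBXL14 at 5.49 to 23.0 CPM over all libraries, but ST7L, at 11.4 to 25.6 CPM, had more counts than WNT2B in 54 of 54 libraries, so the WNT2B values are the least certain.

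DKK1, RSPO2, SFRP1 and WNT5B were the 4 most abundant members per length in each control group. In siCtl with vehicle of the GATA6 experiment, the order in CPM per kb of merged exons was DKK1 (47.6 ± 1.97), RSPO2 (39.1 ± 2.88), SFRP1 (34.7 ± 1.23), WNT5B (33.5 ± 0.604), NDP (6.10 ± 1.14), DKK3 (4.55 ± 0.483), RSPO3 (4.44 ± 0.619), AXIN2 (3.28 ± 0.181), WNT5A (1.78 ± 0.125) and WNT2B (0.516 ± 0.0609). The libraries of SFRP1 and WNT5B overlapped, as did those of DKK3 and RSPO3, so these neighbours were not separated beyond their spread. In DMSO at 4 h, DKK1 (37.8 ± 4.15 CPM per kb) and WNT5B (31.0 ± 0.375) stood above SFRP1 and RSPO2, which overlapped, and NDP, DKK3 and RSPO3 overlapped their neighbours. In siCtl with vehicle of the AP-1 experiment, SFRP1 (44.0 ± 1.98 CPM per kb) and DKK1 (38.1 ± 4.14) overlapped at the top, and WNT2B was lowest (0.450 ± 0.0883), as in every control group.

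A call is an adjusted p under 0.05 in edgeR's quasi-likelihood test over all genes tested. The members were chosen with earlier results of these data known, so all counts of called members describe the set and support nothing about it beside all genes. This holds for DEX, for siRNA and BRM014, and for the differences of effects given below. After 2 h of DEX, 8 of 10 members were called in siGATA6 cells and 8 of 10 in siCtl cells, while 15.9% of all genes were called in each. In DMSO cells 6 of 10 were called at 4 h (all genes 12.5%) and 8 of 10 at 24 h (25.6%), and in BRM014 cells 7 of 10 at 4 h (6.12%) and 7 of 10 at 24 h (13.8%). Among AP-1 libraries, 3 of 10 were called in siFRA1 (4.93%), 5 of 10 in siJUN (5.69%) and 4 of 10 in siCtl cells (5.51%). The comparisons of an experiment share groups, so their calls are not independent of each other.

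Of the perturbations, siGATA6 with vehicle and 24 h of BRM014 changed the most members, 7 each. Against siCtl, siGATA6 changed 6 of 10 members with DEX (all genes 22.6%) and 7 of 10 with vehicle (23.7%). The siGATA6 libraries also held more RN7SK, a non-polyadenylated RNA, at 8.66 ± 2.99 CPM against 2.65 ± 0.239 CPM in siCtl with DEX, and at 8.41 ± 2.99 CPM against 2.98 ± 0.413 CPM with vehicle, and its part in the siGATA6 results was not tested. Against DMSO, BRM014 changed 2 of 10 at 4 h, where 8.68% of all genes were called, and 7 of 10 at 24 h (31.5%), all 7 of them lower (all genes 16.4%). With DEX in both arms, BRM014 changed 4 of 10 at 4 h (12.8%) and 4 of 10 at 24 h (35.5%), a share near that of all genes. For siFRA1 the counts were 5 of 10 with DEX (12.9%) and 6 of 10 with vehicle (10.8%). For siJUN they were 1 of 10 with DEX (6.57%) and 1 of 10 with vehicle (6.82%), about the share of all genes.

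Whether the DEX effect differed between backgrounds was tested as an interaction. Here too the counts only describe members chosen with earlier results known. It differed for 2 of 10 members between siGATA6 and siCtl (all genes 0.338%), and between BRM014 and DMSO for 2 of 10 at 4 h (2.29%) and 4 of 10 at 24 h (6.54%). All 4 of these differences were positive (all genes 3.77%). For siFRA1 and siJUN it differed for 0 of 10 members and 0 genes each by edgeR, with 302 and 378 genes at an unadjusted p under 0.05, and for 2 and 0 genes by DESeq2. The DEX effect in DMSO cells differed between 24 h and 4 h for 5 of 10 members (8.9%), all 5 of them lower at 24 h (6.28% of all genes). The BRM014 effect differed for 3 of 10 (9.44%), all 3 of them lower at 24 h (6.55% of all genes). DMSO cells at 24 h against 4 h had 0 of 10 members and 0 genes called by edgeR and by DESeq2 (174 and 129 genes at an unadjusted p under 0.05). These numbers, and the 302 and 378 above, are below a share of 0.05 of the genes tested, so the test was strict in these comparisons. Each gene's dispersion was shared by all groups of an experiment, and 0 calls do not show that nothing changed.

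**Figure D1:**
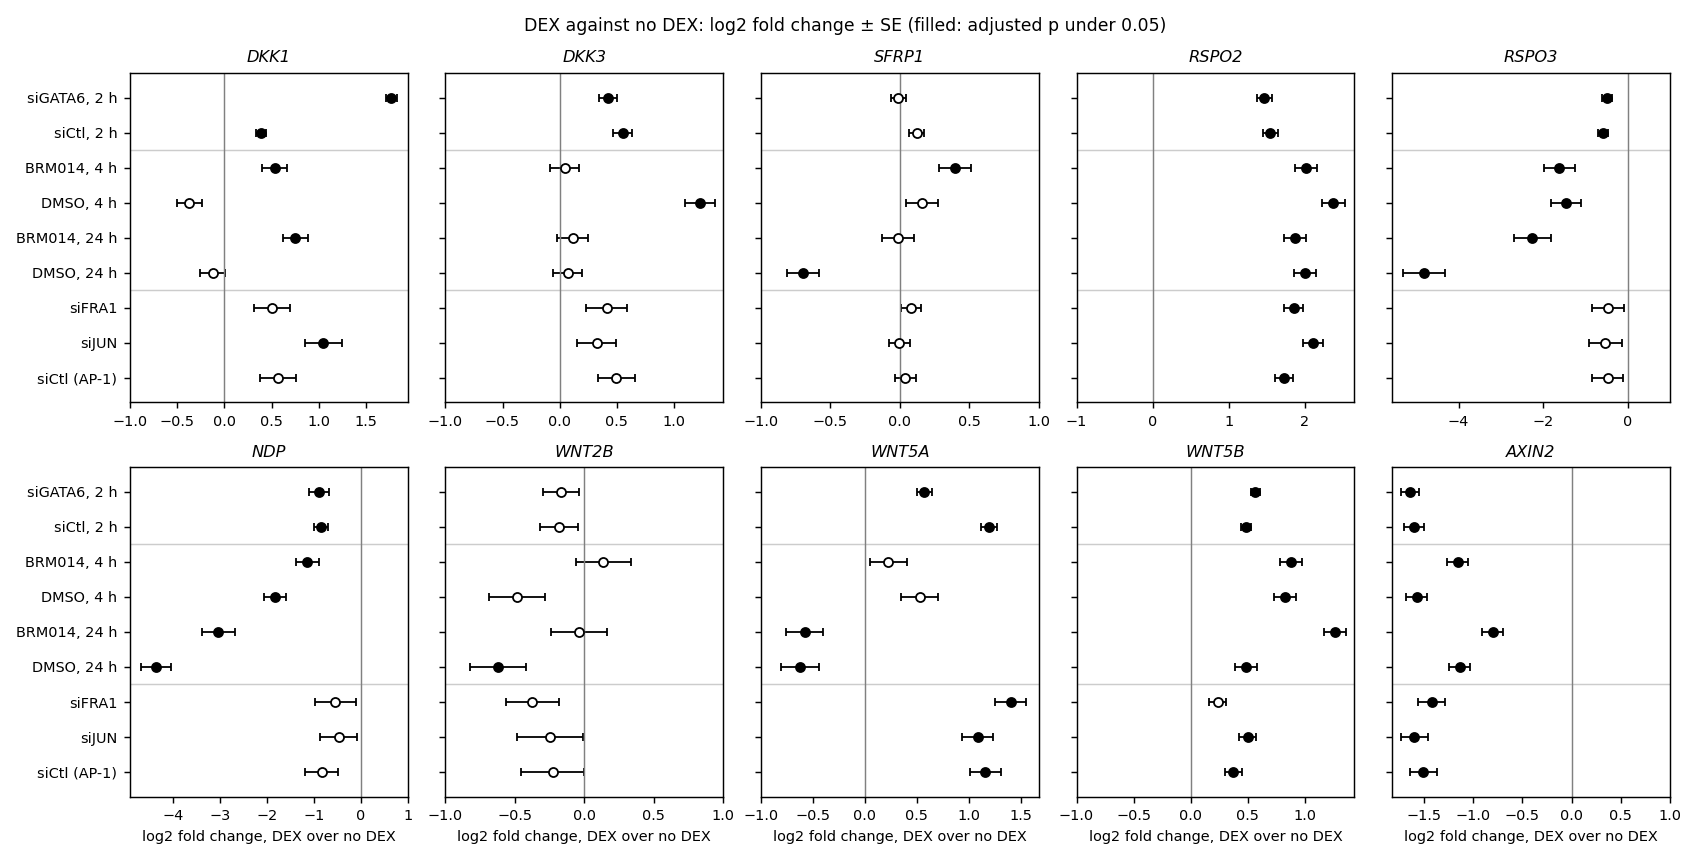
Log2 fold change with DEX over no DEX (points, with SE as bars) of the 10 members in the 9 pairs of groups, and filled points mark an adjusted p under 0.05. RSPO2 lies right of 0 and AXIN2 left of 0 in every row, RSPO3 and NDP reach -4.82 and -4.36 in DMSO at 24 h, and DKK1 reaches 1.77 in siGATA6 cells.

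WNT5A, the ligand best known for signalling outside the beta-catenin branch, rose with DEX at 2 h and was lower with DEX at 24 h. In siGATA6 cells it had 25.6, 24.0 and 26.1 CPM with DEX against 16.8, 18.4 and 15.6 CPM with vehicle (log2FC 0.57, SE 0.074, adjusted p = 3.27e-06). In siCtl cells it had 31.3, 30.2 and 30.0 CPM with DEX against 12.2, 13.4 and 14.0 CPM with vehicle (log2FC 1.20, SE 0.078, adjusted p = 4.22e-11). The groups did not overlap in either background, and the DEX effect was smaller in siGATA6 cells (difference of log2FC -0.62, SE 0.11, adjusted p = 0.00676). Before hormone WNT5A was higher in siGATA6 than in siCtl (log2FC 0.35, SE 0.081, adjusted p = 0.00289), and with DEX it was lower in siGATA6 (log2FC -0.27, SE 0.072, adjusted p = 0.00805), so the order of the siRNA groups was opposite with and without hormone.

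In the BRM014 experiment WNT5A had 20.5, 20.3 and 20.6 CPM in DEX+DMSO against 13.1, 14.3 and 15.2 CPM in DMSO at 4 h (log2FC 0.53, adjusted p = 0.0622). This missed the threshold although the groups did not overlap. It passed with DESeq2 (adjusted p = 0.0450), with only the groups of the comparison in the model (0.00121) and with a term for the replicate number (0.0240). At 24 h it had 7.41, 8.52 and 14.7 CPM in DEX+DMSO against 13.9, 16.0 and 17.0 CPM in DMSO (log2FC -0.63, SE 0.18, adjusted p = 0.0153). Replicate 3 with DEX lay inside the DMSO range and the other replicates below it. With BRM014 at 24 h the values were 11.5, 11.5 and 15.8 CPM with DEX against 18.2, 19.3 and 20.5 CPM without (log2FC -0.58, SE 0.18, adjusted p = 0.0358), with no overlap. The DEX effect was lower at 24 h than at 4 h in DMSO cells (difference of log2FC -1.15, SE 0.26, adjusted p = 0.00606), while its interaction with BRM014 at 24 h was 0.045 (95% interval -0.49 to 0.58). The call at 24 h was lost in DMSO cells without DMSO 24 h replicate 3 or DEX+DMSO 24 h replicate 1 or 2 (log2FC -0.56 to -0.44, adjusted p = 0.0557 to 0.0988), and with only the groups of the comparison in the model (adjusted p = 0.180). In BRM014 cells it was lost without BRM014 24 h replicate 1, 2 or 3 or DEX+BRM014 24 h replicate 1 or 2 (log2FC -0.62 to -0.50, adjusted p = 0.0655 to 0.146), and with only the groups of the comparison in the model (adjusted p = 0.104).

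In the AP-1 experiment WNT5A was again higher with DEX in each background. It had 44.1, 44.6 and 42.0 CPM with DEX against 13.4, 17.0 and 18.8 CPM with vehicle in siFRA1 cells (log2FC 1.41, SE 0.15, adjusted p = 1.22e-06). In siJUN cells it had 39.7, 47.4 and 40.0 CPM with DEX against 18.6, 20.2 and 21.3 CPM with vehicle (log2FC 1.09, SE 0.15, adjusted p = 2.76e-05). In siCtl cells it had 44.9, 56.5 and 39.6 CPM with DEX against 17.5, 26.5 and 19.0 CPM with vehicle (log2FC 1.16, SE 0.15, adjusted p = 1.16e-05). No background showed an overlap, and neither siRNA changed WNT5A past the threshold with or without DEX.

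WNT5B, a close relative of WNT5A, was called higher with DEX in 8 of the 9 pairs of groups. The ninth, siFRA1, had 184, 191 and 168 CPM with DEX against 155, 163 and 144 CPM with vehicle (log2FC 0.23, adjusted p = 0.10), also without overlap. At 2 h it had 280.3, 291 and 281 CPM in siGATA6 with DEX against 203, 184 and 189 CPM with vehicle (log2FC 0.57, SE 0.043, adjusted p = 6.72e-10). In siCtl it had 205, 206 and 193 CPM with DEX against 147, 145 and 142 CPM with vehicle (log2FC 0.48, SE 0.044, adjusted p = 1.48e-08). Each siGATA6 group stood above the siCtl group of the same treatment, with DEX (log2FC 0.50, SE 0.043, adjusted p = 1.89e-08) and with vehicle (log2FC 0.41, SE 0.044, adjusted p = 3.95e-07). At 4 h DEX raised WNT5B in BRM014 cells (log2FC 0.88, SE 0.10, adjusted p = 2.68e-06) and in DMSO cells (log2FC 0.83, SE 0.10, adjusted p = 2.26e-06), and the effects differed by 0.054 (95% interval -0.23 to 0.34).

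At 24 h WNT5B had 239.6, 279 and 231 CPM in DEX+BRM014 against 98.1, 115 and 99.4 CPM in BRM014 (log2FC 1.26, SE 0.10, adjusted p = 1.25e-08). In DEX+DMSO it had 179, 221 and 174 CPM against 126, 136 and 149.9 CPM in DMSO (log2FC 0.48, SE 0.10, adjusted p = 0.000847). The DEX effect was larger with BRM014 (difference of log2FC 0.78, SE 0.14, adjusted p = 0.000985). Without hormone BRM014 lowered WNT5B (log2FC -0.40, SE 0.10, adjusted p = 0.00311), and with hormone BRM014 raised it (log2FC 0.38, SE 0.10, adjusted p = 0.00382). With only the groups of each comparison in the model, the calls for DEX in DMSO cells (adjusted p = 0.0579) and for BRM014 with hormone (0.0648) were lost. Among AP-1 libraries siFRA1 raised WNT5B with vehicle (log2FC 0.27, SE 0.077, adjusted p = 0.0278), a call that was lost without siCtl vehicle replicate 1 or 3 or siFRA1 vehicle replicate 1 or 2 (log2FC 0.21 to 0.27, adjusted p = 0.0761 to 0.132).

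WNT2B, a ligand of the beta-catenin branch that was lowest per length, did not respond to DEX past the threshold except at 24 h in DMSO cells. There it had 5.75, 4.11 and 3.19 CPM in DEX+DMSO against 7.53, 7.46 and 5.38 CPM in DMSO (log2FC -0.62, SE 0.20, adjusted p = 0.0279), and the groups overlapped. That call was lost without DMSO 24 h replicate 1 or 2 or DEX+DMSO 24 h replicate 2 or 3 (log2FC -0.57 to -0.46, adjusted p = 0.0962 to 0.118), and with only the groups of the comparison in the model (adjusted p = 0.162). At 4 h in DMSO cells WNT2B was called lower with DEX with only the groups of the comparison in the model (adjusted p = 0.0246). Its largest changes were with siFRA1, where WNT2B had 10.2, 10.3 and 11.6 CPM with DEX against 4.71, 4.14 and 5.67 CPM in siCtl with DEX (log2FC 1.15, SE 0.21, adjusted p = 0.00108). With vehicle it had 13.2, 13.6 and 14.8 CPM in siFRA1 against 4.53, 5.67 and 6.75 CPM in siCtl (log2FC 1.29, SE 0.20, adjusted p = 0.000225). The overlapping ST7L was at 22.6 ± 0.397 CPM in siFRA1 against 16.6 ± 2.05 CPM in siCtl with DEX, and at 24.6 ± 1.66 CPM against 17.7 ± 1.68 CPM with vehicle (mean ± SD, n = 3 each), and the part of its reads in the WNT2B values was not tested. Every siFRA1 library was above every siCtl library for WNT2B, whereas siJUN did not change WNT2B past the threshold (log2FC -0.47 with DEX and -0.46 with vehicle, adjusted p = 0.279 and 0.266).

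**Figure D2:**
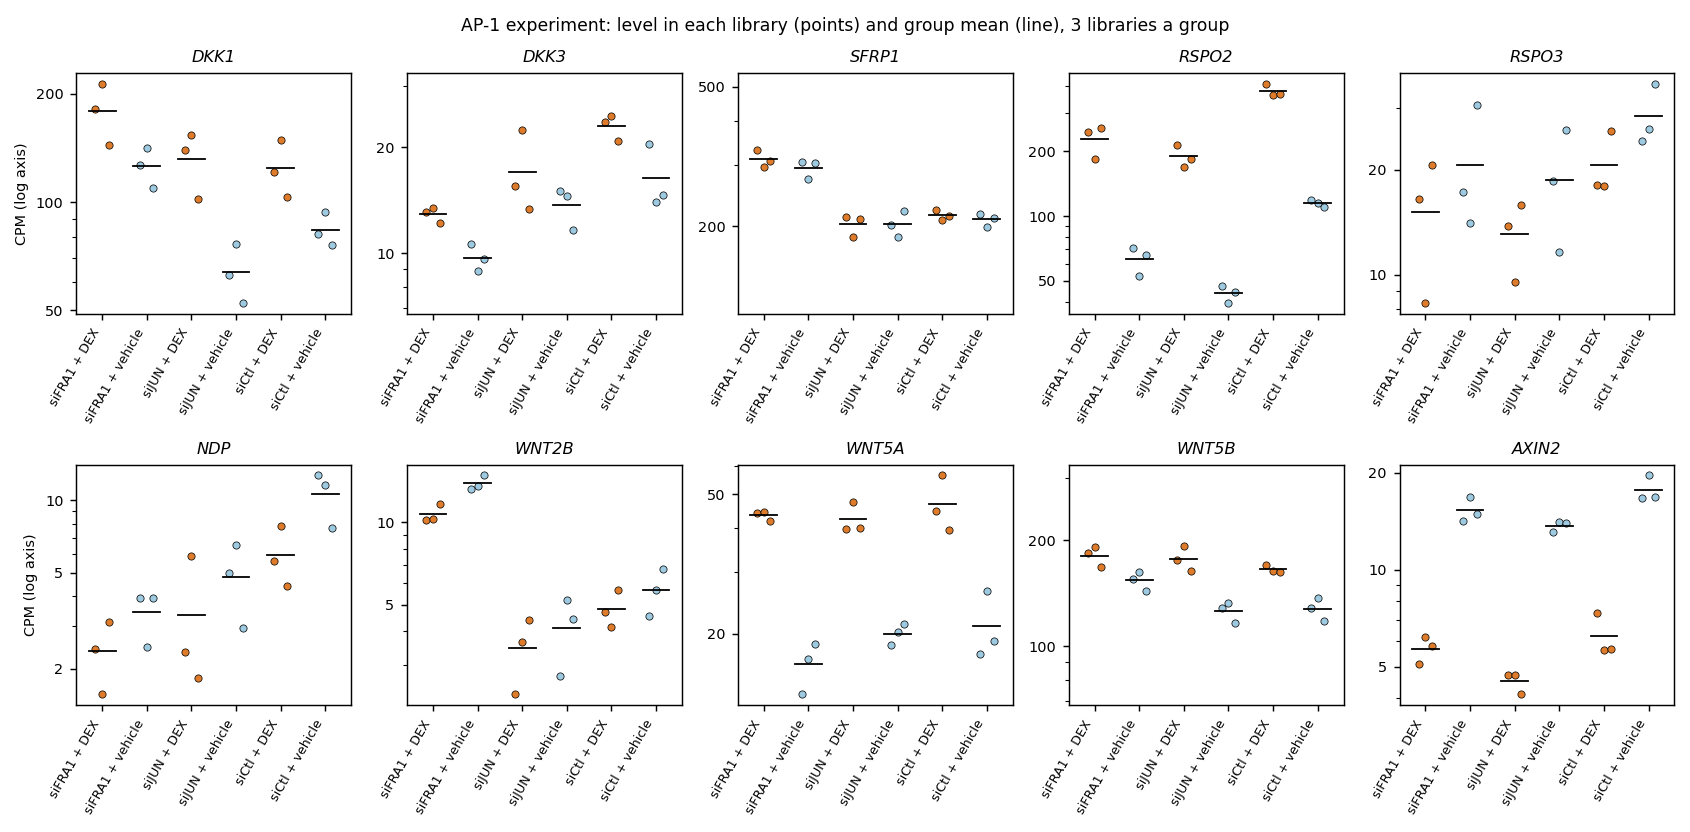
Levels (CPM, log axis) of the 10 members in the AP-1 experiment, with a point for each of the 3 libraries of a group and a line at the mean, orange with DEX and blue with vehicle. RSPO2 is lower in siJUN and siFRA1 than in siCtl (with DEX 189 and 228 against 379.5 CPM), and WNT2B is highest in the siFRA1 groups.

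RSPO2, the R-spondin gene with the higher level per length here, rose with DEX in every background. At 2 h it had 448, 508 and 427 CPM in siGATA6 with DEX against 164, 187 and 147 CPM with vehicle (log2FC 1.47, SE 0.10, adjusted p = 4.85e-07). In siCtl it had 449, 503 and 461 CPM with DEX against 152, 174 and 157 CPM with vehicle (log2FC 1.55, SE 0.10, adjusted p = 3.31e-07). The hormone groups lay far above the vehicle groups, and siGATA6 and siCtl overlapped both with DEX (log2FC -0.033) and with vehicle (0.045). The interaction was -0.078 with a 95% interval of -0.37 to 0.22, so a change of the DEX effect beyond those bounds was not seen.

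At 4 h RSPO2 had 516, 520.4 and 526 CPM in DEX+DMSO against 95.1, 102 and 104 CPM in DMSO (log2FC 2.38, SE 0.15, adjusted p = 1.98e-10). In BRM014 cells it had 369, 407 and 385 CPM with DEX against 89.0, 102 and 96.7 CPM without (log2FC 2.01, SE 0.15, adjusted p = 7.55e-09). The groups with hormone stood apart from those without in both. DEX+BRM014 lay below DEX+DMSO (log2FC -0.43, SE 0.14, adjusted p = 0.0498), although that call was lost without DEX+DMSO 4 h replicate 1, 2 or 3 or DEX+BRM014 4 h replicate 1, 2 or 3 (log2FC -0.47 to -0.40, adjusted p = 0.0815 to 0.153). It was also lost with the size factors of DESeq2 in edgeR (adjusted p = 0.0537), with library totals alone (0.0756) and without the filter on low counts (0.0869). At 24 h RSPO2 had 173, 210.3 and 138 CPM in DEX+BRM014 against 49.1, 56.7 and 36.5 CPM in BRM014 (log2FC 1.87, SE 0.15, adjusted p = 1.25e-08). In DMSO cells it had 373, 459 and 370.0 CPM with DEX against 105, 107 and 87.5 CPM without (log2FC 2.00, SE 0.15, adjusted p = 2.17e-09).

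BRM014 lowered RSPO2 at 24 h with DEX (log2FC -1.20, SE 0.14, adjusted p = 1.26e-06) and without it (log2FC -1.07, SE 0.14, adjusted p = 6.95e-06), and the interaction was -0.13 (95% interval -0.55 to 0.29). At 4 h without hormone the log2FC was -0.066, and the BRM014 effect differed between the times (difference of log2FC -1.01, SE 0.20, adjusted p = 0.00221). RSPO2 was also the member called lower with both AP-1 siRNAs, although RSPO3 and NDP joined it in some other settings of the model, given below. With vehicle it had 70.8, 52.5 and 65.7 CPM in siFRA1 (log2FC -0.86, SE 0.12, adjusted p = 0.000195) and 47.4, 39.5 and 44.6 CPM in siJUN (log2FC -1.39, SE 0.13, adjusted p = 7.32e-06), against 118, 115 and 111 CPM in siCtl. With DEX it had 244, 185 and 256.6 CPM in siFRA1 (log2FC -0.73, SE 0.12, adjusted p = 0.000522) and 214, 168 and 184 CPM in siJUN (log2FC -1.01, SE 0.12, adjusted p = 5.08e-05), against 409, 363 and 367 CPM in siCtl. Neither siRNA group overlapped siCtl. DEX over vehicle gave a log2FC of 1.86 in siFRA1, 2.11 in siJUN and 1.73 in siCtl cells. The interaction was 0.13 for siFRA1 (95% interval -0.23 to 0.49) and 0.38 for siJUN (0.014 to 0.74), neither of them called.

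**Figure D3:**
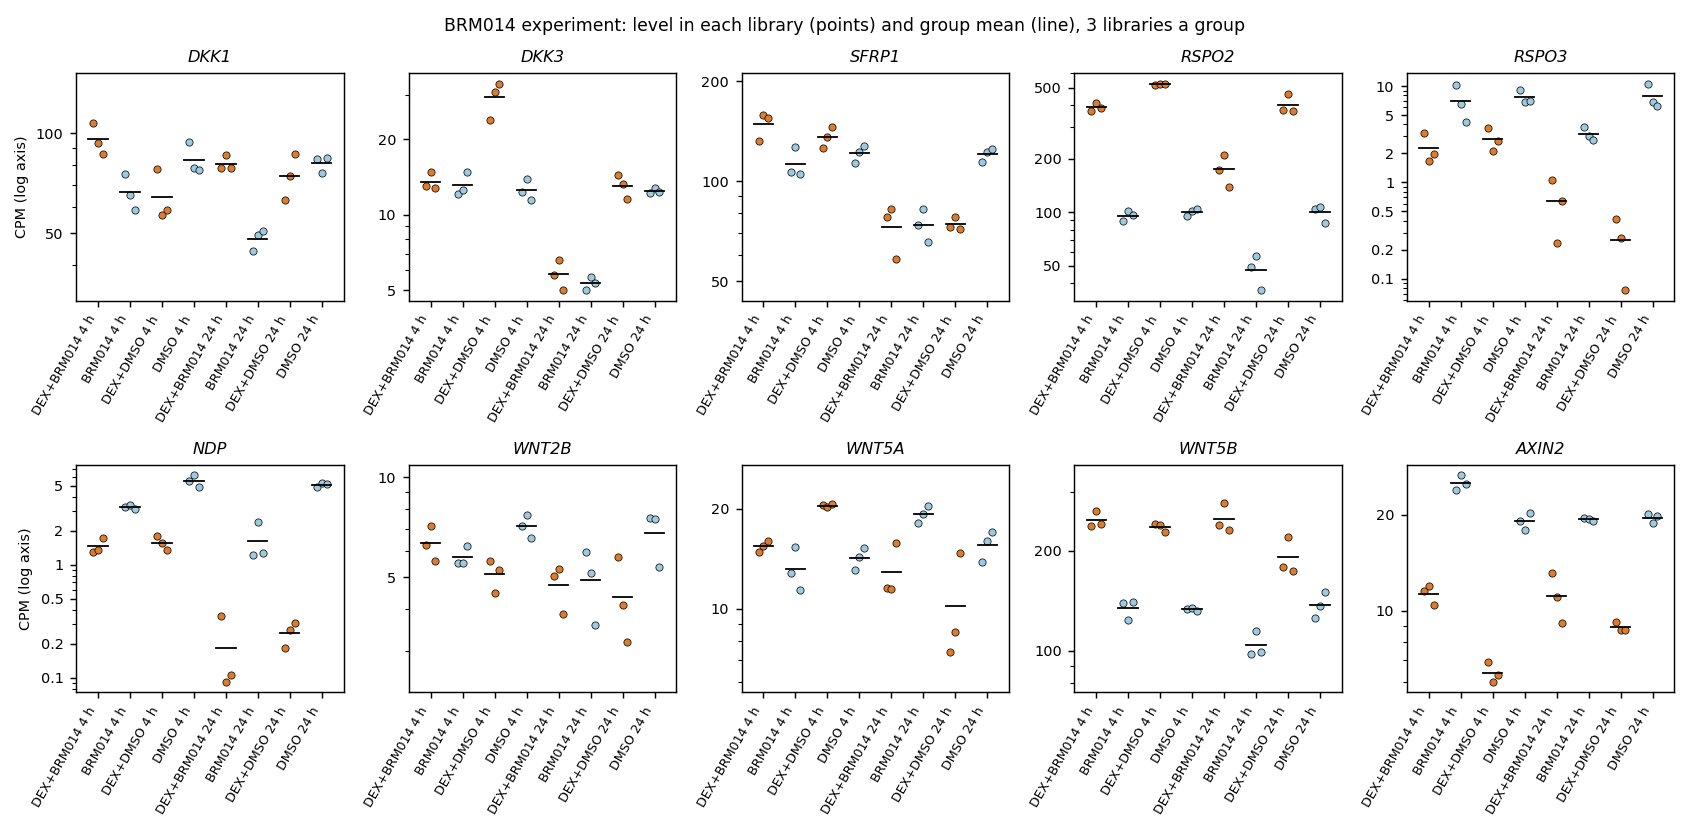
Levels (CPM, log axis) of the 10 members in the BRM014 experiment, with a point for each of the 3 libraries of a group and a line at the mean, orange with DEX and blue without. RSPO3 and NDP are lowest in the DEX groups at 24 h (means 0.252 and 0.251 CPM in DEX+DMSO), and DKK3 is highest in DEX+DMSO at 4 h (29.5 CPM).

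RSPO3, the other R-spondin gene measured here, fell with DEX at 2, 4 and 24 h. At 2 h it had 7.83, 7.48 and 7.70 CPM in siGATA6 with DEX against 11.7, 9.08 and 11.7 CPM with vehicle (log2FC -0.49, SE 0.12, adjusted p = 0.00631). In siCtl it had 8.35, 9.47 and 10.7 CPM with DEX against 14.1, 12.1 and 16.1 CPM with vehicle (log2FC -0.58, SE 0.12, adjusted p = 0.00107). Neither pair of groups overlapped. With vehicle RSPO3 was lower in siGATA6 than in siCtl (log2FC -0.41, SE 0.12, adjusted p = 0.0121), and this call was lost without siCtl vehicle replicate 3 or siGATA6 vehicle replicate 2 (log2FC -0.29 to -0.28, adjusted p = 0.0930 to 0.135). With DEX it was not called, but passed with a term for the replicate number in the model (log2FC -0.34, adjusted p = 0.0131). It also passed with only the groups of the comparison (log2FC -0.32, adjusted p = 0.0485) and without siCtl DEX replicate 1 (log2FC -0.40, adjusted p = 0.0485).

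At 4 h RSPO3 had 3.64, 2.12 and 2.69 CPM in DEX+DMSO against 9.15, 6.92 and 7.04 CPM in DMSO (log2FC -1.46, SE 0.36, adjusted p = 0.00750). At 24 h it had 0.414, 0.265 and 0.0760 CPM, from 9, 6 and 1 counts, in DEX+DMSO against 10.6, 6.88 and 6.23 CPM in DMSO (log2FC -4.82, SE 0.49, adjusted p = 3.04e-07). The hormone groups lay below the DMSO groups at both times, and the fall was larger at 24 h (difference of log2FC -3.36, SE 0.63, adjusted p = 0.00163). The call at 4 h was lost without DEX+DMSO 4 h replicate 2 (log2FC -1.29, adjusted p = 0.0544). In BRM014 cells RSPO3 had 3.27, 1.67 and 1.96 CPM with DEX against 10.3, 6.58 and 4.20 CPM without at 4 h (log2FC -1.61, SE 0.36, adjusted p = 0.00731), a call lost without BRM014 4 h replicate 1 or DEX+BRM014 4 h replicate 2 or 3 (log2FC -1.51 to -1.24, adjusted p = 0.0506 to 0.0566), and with only the groups of the comparison in the model (adjusted p = 0.0720).

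At 24 h RSPO3 had 1.06, 0.233 and 0.638 CPM, from 27, 5 and 12 counts, in DEX+BRM014 against 3.75, 3.05 and 2.74 CPM in BRM014 (log2FC -2.26, SE 0.44, adjusted p = 0.00102). BRM014 without hormone lowered it against DMSO (log2FC -1.31, SE 0.35, adjusted p = 0.00627). The fall with DEX was smaller in BRM014 than in DMSO cells (difference of log2FC 2.56, SE 0.71, adjusted p = 0.0338). This difference rests on groups with few counts and was lost without DMSO 24 h replicate 1, BRM014 24 h replicate 2 or 3, DEX+DMSO 24 h replicate 2 or 3 or DEX+BRM014 24 h replicate 1 or 3 (log2FC 1.93 to 2.58, adjusted p = 0.0563 to 0.215). It was also lost without the filter on low counts (adjusted p = 0.0542) and with only the groups of the comparison in the model (0.0660). Among AP-1 libraries no comparison of RSPO3 passed the threshold, and the log2FC with DEX was -0.46 in siFRA1, -0.53 in siJUN and -0.47 in siCtl cells. With a term for the replicate number in the model, RSPO3 was called lower with DEX in siJUN (adjusted p = 0.0369) and siCtl cells (0.0293). It was then also called lower with siFRA1 (0.0199 with DEX and 0.00847 with vehicle) and with siJUN (0.00225 and 0.00147).

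NDP, which encodes the FZD4 ligand norrin, fell with DEX in the GATA6 and BRM014 experiments, and it fell with siGATA6. With DEX for 2 h it had 2.68, 1.81 and 2.59 CPM in siGATA6 against 7.35, 6.05 and 6.03 CPM in siCtl (log2FC -1.44, SE 0.20, adjusted p = 1.81e-05). With vehicle it had 4.69, 5.18 and 3.29 CPM in siGATA6 against 10.9, 14.2 and 10.1 CPM in siCtl (log2FC -1.40, SE 0.16, adjusted p = 2.69e-06). The siGATA6 libraries lay below all siCtl libraries of the same treatment. DEX lowered NDP in siGATA6 (log2FC -0.89, SE 0.20, adjusted p = 0.00354) and in siCtl cells (log2FC -0.85, SE 0.16, adjusted p = 0.000552), and the interaction was -0.043 (95% interval -0.57 to 0.49).

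At 4 h NDP had 1.79, 1.57 and 1.37 CPM in DEX+DMSO against 5.55, 6.26 and 4.89 CPM in DMSO (log2FC -1.83, SE 0.24, adjusted p = 9.13e-06). At 24 h it had 0.184, 0.265 and 0.304 CPM, from 4, 6 and 4 counts, in DEX+DMSO against 4.87, 5.33 and 5.21 CPM in DMSO (log2FC -4.36, SE 0.32, adjusted p = 2.71e-09). The DMSO groups of both times overlapped, the hormone groups did not, and the fall was larger at 24 h (difference of log2FC -2.54, SE 0.43, adjusted p = 0.000521). In BRM014 cells DEX lowered NDP at 4 h (log2FC -1.14, SE 0.25, adjusted p = 0.00469) and at 24 h, where it had 0.354, 0.0930 and 0.106 CPM, from 9, 2 and 2 counts, in DEX+BRM014 against 1.22, 2.41 and 1.27 CPM in BRM014 (log2FC -3.03, SE 0.35, adjusted p = 3.48e-06). The interaction at 24 h was 1.33 with an SE of 0.57 and was not called (adjusted p = 0.203).

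BRM014 without hormone lowered NDP at 24 h (log2FC -1.64, SE 0.23, adjusted p = 1.58e-05). At 4 h it had 3.25, 3.37 and 3.11 CPM in BRM014 against 5.55, 6.26 and 4.89 CPM in DMSO (log2FC -0.78, SE 0.22, adjusted p = 0.0321), with no overlap, but that call was lost without DMSO 4 h replicate 1 or 2 or BRM014 4 h replicate 1, 2 or 3 (log2FC -0.81 to -0.69, adjusted p = 0.0718 to 0.127). The AP-1 factor siRNA siFRA1 lowered NDP with vehicle, at 3.92, 2.45 and 3.93 CPM against 12.7, 11.6 and 7.70 CPM in siCtl (log2FC -1.63, SE 0.37, adjusted p = 0.00929). With DEX it had 2.42, 1.56 and 3.14 CPM in siFRA1 against 5.59, 7.84 and 4.40 CPM in siCtl (log2FC -1.34, SE 0.42, adjusted p = 0.0443), a call lost without siCtl DEX replicate 1 or 2 or siFRA1 DEX replicate 1 or 2 (log2FC -1.38 to -1.08, adjusted p = 0.0871 to 0.184), with library totals alone (adjusted p = 0.0545) and without the filter on low counts (0.0917). siJUN with vehicle was below siCtl in every library (log2FC -1.13) but missed the threshold (adjusted p = 0.0711), which it passed with DESeq2 (adjusted p = 0.0259) and with only the groups of the comparison in the model (0.0362). DEX over vehicle was not called for NDP in any background of the AP-1 experiment, and the groups overlapped in each. The means with DEX and vehicle were 2.37 and 3.43 CPM in siFRA1, 3.35 and 4.82 CPM in siJUN, and 5.95 and 10.7 CPM in siCtl.

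DKK1, the antagonist that blocks LRP5 and LRP6, had a DEX effect that differed between siGATA6 and siCtl cells (difference of log2FC 1.38, SE 0.08, adjusted p = 4.38e-10). In siGATA6 cells it had 111, 97.5 and 101 CPM with DEX against 30.7, 29 and 31.0 CPM with vehicle (log2FC 1.77, SE 0.059, adjusted p = 2.17e-16). In siCtl cells it had 146, 133 and 131 CPM with DEX against 107, 108 and 100.2 CPM with vehicle (log2FC 0.38, SE 0.054, adjusted p = 1.14e-05). After 2 h of hormone the siGATA6 libraries overlapped siCtl with vehicle and lay below siCtl with DEX (log2FC -0.41, SE 0.054, adjusted p = 5.78e-06). With vehicle DKK1 was at 30.2 ± 1.06 CPM in siGATA6 against 105 ± 4.34 CPM in siCtl (mean ± SD, n = 3 each), so the larger DEX effect started from a lower level.

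DKK1 also responded to DEX differently with BRM014. At 4 h it had 108, 93.3 and 86.7 CPM in DEX+BRM014 against 75.2, 65.1 and 58.8 CPM in BRM014 (log2FC 0.53, SE 0.13, adjusted p = 0.0142). In DMSO cells it had 77.9, 56.8 and 58.8 CPM with DEX against 93.9, 78.3 and 77.8 CPM without (log2FC -0.37, adjusted p = 0.0735). In BRM014 cells every hormone library was above every library without hormone, whereas in DMSO cells the groups overlapped. The DEX effect differed between the backgrounds (difference of log2FC 0.90, SE 0.19, adjusted p = 0.00752). The call in BRM014 cells was lost without BRM014 4 h replicate 2 or 3 or DEX+BRM014 4 h replicate 1 (log2FC 0.44 to 0.52, adjusted p = 0.0571 to 0.102). DKK1 was called lower with DEX in DMSO cells without DEX+DMSO 4 h replicate 1 (log2FC -0.53, adjusted p = 0.00930), and with library totals alone (adjusted p = 0.0276).

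At 24 h DKK1 had 78.3, 85.7 and 78.6 CPM in DEX+BRM014 against 44.2, 49.3 and 50.7 CPM in BRM014 (log2FC 0.75, SE 0.13, adjusted p = 0.000389). In DMSO cells it had 62.9, 74.5 and 86.3 CPM with DEX against 83.8, 75.9 and 84.1 CPM without (log2FC -0.12, adjusted p = 0.546). The DEX effect again differed between the backgrounds (difference of log2FC 0.88, SE 0.19, adjusted p = 0.00515). BRM014 lowered DKK1 without hormone at 24 h (log2FC -0.76, SE 0.13, adjusted p = 0.000143), and with hormone it raised it at 4 h (log2FC 0.57, SE 0.13, adjusted p = 0.00461). With hormone at 24 h the log2FC was 0.12 (95% interval -0.15 to 0.39).

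In the AP-1 experiment DKK1 rose with DEX in siJUN cells, with 139, 154 and 102 CPM against 62.7, 76.4 and 52.5 CPM with vehicle (log2FC 1.05, SE 0.20, adjusted p = 0.00359). In siFRA1 it had 181, 213 and 144 CPM with DEX against 127, 142 and 109.8 CPM with vehicle (log2FC 0.51, adjusted p = 0.229). In siCtl it had 122, 149 and 103 CPM with DEX against 81.7, 94.0 and 76.2 CPM with vehicle (log2FC 0.57, adjusted p = 0.140). None of these pairs of groups overlapped, and in siCtl cells the DEX effect was called with DESeq2 (adjusted p = 0.0231). The interaction of siJUN with DEX was 0.48 (95% interval -0.11 to 1.06, adjusted p = 1.00) and was not called. With a term for the replicate number in the model, this interaction was called (adjusted p = 0.0103). DEX was then also called higher in siFRA1 (adjusted p = 1.13e-08) and siCtl cells (2.08e-09). With vehicle in both, the log2FC of siFRA1 over siCtl was 0.59 (adjusted p = 0.0676), which missed the threshold and passed it with DESeq2 (adjusted p = 0.00917) and with only the groups of the comparison in the model (0.00361). With DEX in both it was 0.53 (adjusted p = 0.0869), which passed the threshold with DESeq2 (adjusted p = 0.0203) and without siFRA1 DEX replicate 3 (log2FC 0.66, adjusted p = 0.0434). With the replicate term, siFRA1 was called higher with vehicle (adjusted p = 1.06e-09) and with DEX (5.64e-09). siJUN was then called lower with vehicle (log2FC -0.40, adjusted p = 7.15e-06).

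**Figure D4:**
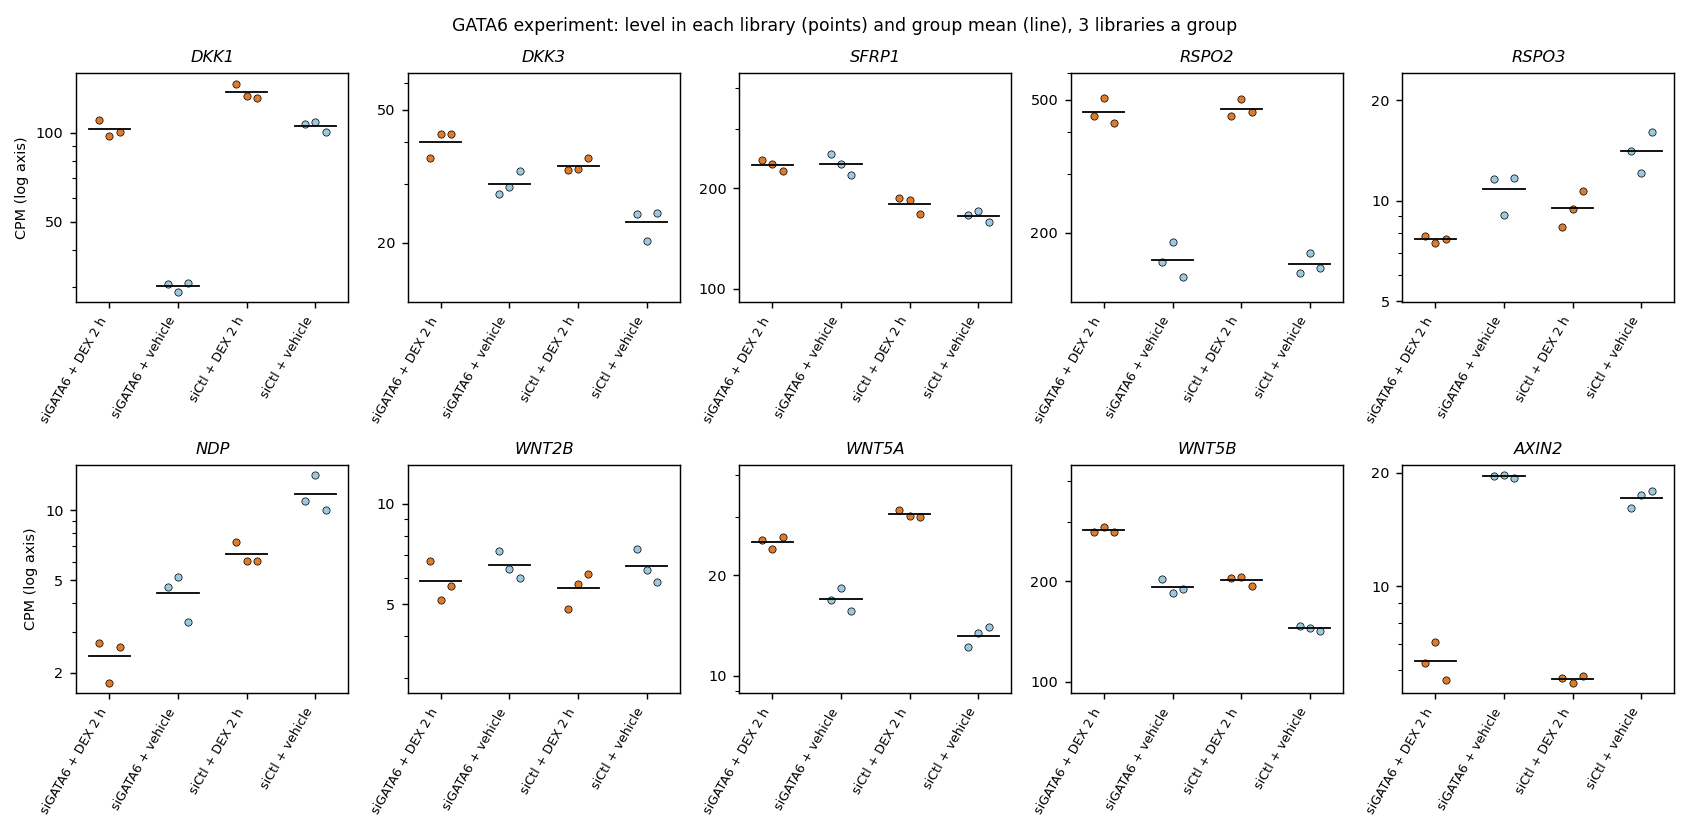
Levels (CPM, log axis) of the 10 members in the GATA6 experiment, with a point for each of the 3 libraries of a group and a line at the mean, orange with DEX and blue with vehicle. DKK1 is lowest in siGATA6 with vehicle (30.2 CPM), WNT5A is highest in siCtl with DEX (30.5 CPM), and NDP is lowest in siGATA6 with DEX (2.36 CPM).

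DKK3, a relative of DKK1 whose part in Wnt signalling is less settled, was called higher with DEX in siGATA6 and siCtl cells of the GATA6 experiment and in DMSO cells at 4 h, and was not called in BRM014 cells. In the AP-1 experiment it was not called with DEX in siFRA1 (log2FC 0.41, adjusted p = 0.330), siJUN (0.32, 0.420) or siCtl cells (0.50, 0.101), where it was called without siCtl vehicle replicate 1 (log2FC 0.69, adjusted p = 0.0235). In DMSO cells at 4 h it had 24.0, 31.0 and 33.4 CPM with DEX against 12.3, 13.8 and 11.5 CPM without (log2FC 1.23, SE 0.13, adjusted p = 4.6e-07). In BRM014 cells it had 13, 14.8 and 12.8 CPM with DEX against 12.1, 12.5 and 14.8 CPM without (log2FC 0.044, adjusted p = 0.961). The DEX+DMSO libraries stood above all others, and the DEX effect was lower with BRM014 (difference of log2FC -1.19, SE 0.18, adjusted p = 0.000468). At 24 h the DEX effect in DMSO cells was 0.07 on the log2 scale (95% interval -0.20 to 0.34), lower than at 4 h (difference of log2FC -1.16, SE 0.18, adjusted p = 0.000267).

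BRM014 lowered DKK3 at 24 h to 5.74, 6.6 and 4.99 CPM in DEX+BRM014 against 14.4, 13.3 and 11.6 CPM in DEX+DMSO (log2FC -1.18, SE 0.13, adjusted p = 7.82e-07). Without hormone it had 5.02, 5.67 and 5.32 CPM in BRM014 against 12.3, 12.8 and 12.4 CPM in DMSO (log2FC -1.22, SE 0.13, adjusted p = 5.3e-07). No pair overlapped. At 4 h BRM014 lowered it with DEX (log2FC -1.12, SE 0.13, adjusted p = 2.4e-06), while without DEX its log2FC was 0.067 (95% interval -0.20 to 0.34), and its effect differed between the times (difference of log2FC -1.29, SE 0.19, adjusted p = 8.74e-05).

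At 2 h DKK3 rose with DEX in siGATA6 (log2FC 0.42, SE 0.078, adjusted p = 0.000328) and in siCtl (log2FC 0.55, SE 0.083, adjusted p = 2.79e-05). It was higher in siGATA6 than in siCtl with vehicle, at 28.0, 29.3 and 32.6 against 24.3, 20.2 and 24.6 CPM (log2FC 0.37, SE 0.083, adjusted p = 0.00197). With DEX the difference was 0.24 (adjusted p = 0.0281) and was lost without siCtl DEX replicate 1 or 2 or siGATA6 DEX replicate 2 or 3 (log2FC 0.21 to 0.23, adjusted p = 0.0878 to 0.114). siFRA1 lowered DKK3 with DEX, at 13.1, 13.4 and 12.2 CPM against 23.7, 24.6 and 20.8 CPM in siCtl (log2FC -0.84, SE 0.17, adjusted p = 0.00235). With vehicle it had 10.6, 8.89 and 9.62 CPM in siFRA1 against 20.4, 14.0 and 14.6 CPM in siCtl (log2FC -0.75, SE 0.18, adjusted p = 0.00835). Neither pair overlapped, and the call with vehicle was lost without siCtl vehicle replicate 1 (log2FC -0.56, adjusted p = 0.0695).

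SFRP1, which encodes a secreted Frizzled-related antagonist, was called with DEX in 2 of 9 comparisons, once in each direction, and was higher with siGATA6 and siFRA1. In siCtl cells of the GATA6 experiment, DEX was also called without siCtl DEX replicate 3 (log2FC 0.17, adjusted p = 0.0487) and with a term for the replicate number (0.0154). SFRP1 had 243, 236 and 225 CPM in siGATA6 with DEX against 186, 184 and 168 CPM in siCtl with DEX (log2FC 0.39, SE 0.053, adjusted p = 1.32e-05). It had 253.99, 237 and 218 CPM in siGATA6 with vehicle against 166, 170.4 and 159 CPM in siCtl with vehicle (log2FC 0.52, SE 0.054, adjusted p = 2.95e-07). The siGATA6 libraries lay above all siCtl libraries. With siFRA1 it had 331, 296 and 306 CPM with DEX against 223, 209 and 214 CPM in siCtl (log2FC 0.53, SE 0.074, adjusted p = 6.71e-05). It had 305, 273 and 304 CPM with vehicle in siFRA1 against 218, 199 and 212 CPM in siCtl (log2FC 0.49, SE 0.074, adjusted p = 0.000174), again with no overlap. For siJUN the log2FC was -0.084 with DEX and -0.043 with vehicle, and neither was called.

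At 24 h the 3 treated groups of the BRM014 experiment overlapped in SFRP1, and all lay below DMSO. DEX+BRM014 had 77.9, 82.6 and 58.5 CPM, BRM014 had 73.7, 82.2 and 65.5 CPM and DEX+DMSO had 72.9, 78.2 and 71.8 CPM, against 115, 122 and 125 CPM in DMSO. SFRP1 thus fell with DEX in DMSO cells (log2FC -0.70, SE 0.12, adjusted p = 0.000114) and with BRM014 (log2FC -0.71, SE 0.12, adjusted p = 7.18e-05). DEX in BRM014 cells gave a log2FC of -0.016 (95% interval -0.26 to 0.22), and the DEX effect differed between the backgrounds (difference of log2FC 0.68, SE 0.16, adjusted p = 0.0123). The DEX effect was lower at 24 h than at 4 h (difference of log2FC -0.86, SE 0.16, adjusted p = 0.00159). So was the BRM014 effect (difference of log2FC -0.60, SE 0.16, adjusted p = 0.0206), a call lost without DMSO 4 h replicate 1 or BRM014 4 h replicate 2 (log2FC -0.56 to -0.51, adjusted p = 0.0550 to 0.0606), and with library totals alone (adjusted p = 0.0611). At 4 h the rise with DEX in BRM014 cells (log2FC 0.40, SE 0.11, adjusted p = 0.0429) was lost without BRM014 4 h replicate 1 or 3 or DEX+BRM014 4 h replicate 2 or 3 (log2FC 0.35 to 0.36, adjusted p = 0.153 to 0.173). It was also lost without the filter on low counts (adjusted p = 0.0620) and with only the groups of the comparison in the model (0.0831).

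AXIN2, the feedback inhibitor read as a target of beta-catenin, was lower with DEX in every background and at every time. At 2 h it had 6.26, 7.12 and 5.62 CPM in siGATA6 with DEX against 19.6, 19.7 and 19.4 CPM with vehicle (log2FC -1.64, SE 0.092, adjusted p = 2.84e-12). In siCtl it had 5.71, 5.54 and 5.77 CPM with DEX against 16.1, 17.5 and 17.9 CPM with vehicle (log2FC -1.60, SE 0.10, adjusted p = 1.35e-11). The values with hormone overlapped between the backgrounds, and siGATA6 changed AXIN2 neither with DEX nor with vehicle past the threshold (log2FC 0.15 and 0.18). DEX also lowered AXIN2 in siFRA1 (log2FC -1.42, SE 0.14, adjusted p = 2.51e-07), siJUN (log2FC -1.60, SE 0.14, adjusted p = 5.42e-08) and siCtl cells (log2FC -1.51, SE 0.14, adjusted p = 6.5e-08).

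At 4 h AXIN2 had 11.5, 12 and 10.4 CPM in DEX+BRM014 against 23.9, 26.7 and 25.1 CPM in BRM014 (log2FC -1.16, SE 0.11, adjusted p = 1.95e-07). In DMSO cells it had 6.92, 6.01 and 6.28 CPM with DEX against 19.2, 17.9 and 20.3 CPM without (log2FC -1.58, SE 0.11, adjusted p = 8.22e-10). BRM014 raised it at 4 h with DEX (log2FC 0.82, SE 0.11, adjusted p = 1.32e-05) and without (log2FC 0.40, SE 0.10, adjusted p = 0.0170). The call without DEX was lost without DMSO 4 h replicate 1 or 2 or BRM014 4 h replicate 2 (log2FC 0.35 to 0.40, adjusted p = 0.0625 to 0.0801). At 24 h it had 13.1, 11 and 9.14 CPM in DEX+BRM014 against 19.6, 19.5 and 19.1 CPM in BRM014 (log2FC -0.80, SE 0.11, adjusted p = 1.53e-05). In DMSO cells it had 9.25, 8.70 and 8.74 CPM with DEX against 20.1, 18.8 and 19.8 CPM without (log2FC -1.14, SE 0.11, adjusted p = 7.79e-08). The DEX effects in BRM014 and DMSO cells did not differ past the threshold at either time (0.42 with 95% interval 0.11 to 0.73 at 4 h, 0.34 with 0.026 to 0.65 at 24 h), though the 24 h difference passed it without DEX+BRM014 24 h replicate 3 (log2FC 0.45, adjusted p = 0.0423). At 24 h with DEX, AXIN2 was higher in BRM014 than in DMSO cells (log2FC 0.32, SE 0.11, adjusted p = 0.0237), a call lost without DEX+DMSO 24 h replicate 2 or 3 or DEX+BRM014 24 h replicate 1 (log2FC 0.18 to 0.31, adjusted p = 0.0610 to 0.217). It was also lost without the filter on low counts (adjusted p = 0.0783) and with only the groups of the comparison in the model (0.202).

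**Figure D5:**
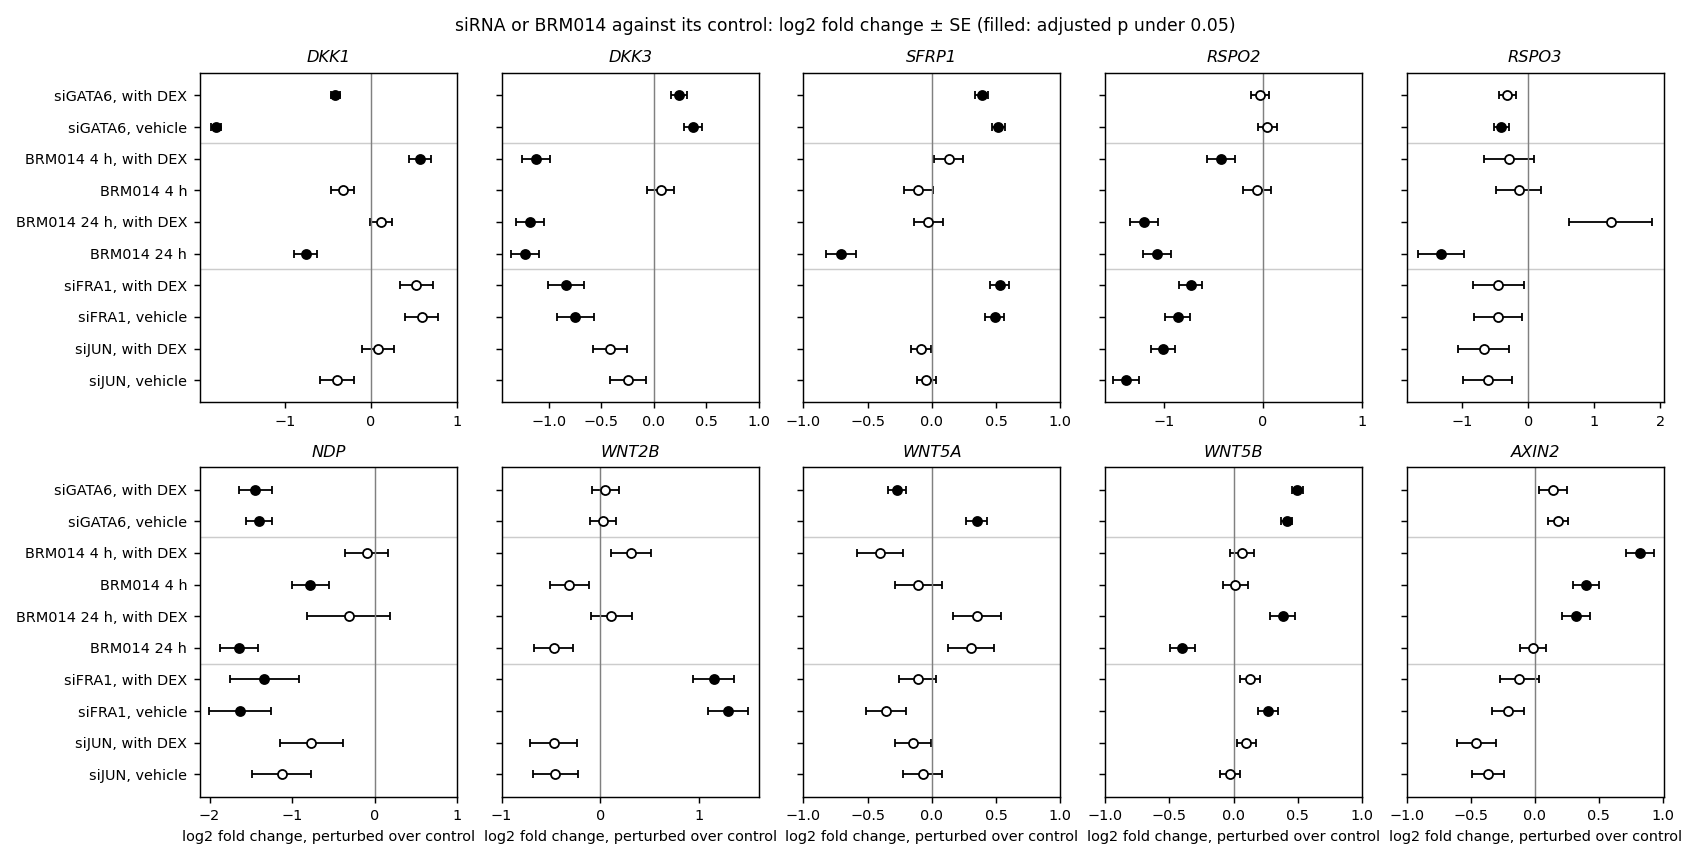
Log2 fold change of siRNA or BRM014 over its control (points, with SE as bars) for the 10 members, with DEX in both arms or without, and filled points mark an adjusted p under 0.05. DKK1 is at -0.41 with DEX and -1.80 with vehicle for siGATA6, RSPO2 lies left of 0 for siFRA1 and siJUN, and WNT2B lies right of 0 for siFRA1 (1.15 with DEX and 1.29 with vehicle).

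Of 87 other genes of the pathway, 56 were tested in the GATA6, 62 in the BRM014 and 54 in the AP-1 experiment. At 2 h of DEX, 15 of them were higher and 6 lower in siGATA6, and 13 higher and 5 lower in siCtl, with median log2FC of 0.052 and -0.039, against -0.0031 and -0.0017 for all genes. These counts stand beside 15.9% of all genes called in siGATA6 and 15.9% in siCtl. Among the receptors and co-receptors, 5 of 19 were higher and 2 lower in siGATA6, and 6 higher and 3 lower in siCtl. FZD8, a Frizzled receptor gene, rose in siGATA6 (log2FC 1.64, SE 0.10, adjusted p = 5.81e-09) and in siCtl (log2FC 1.71, SE 0.10, adjusted p = 7.63e-09), and FZD7 rose less in siGATA6 (1.04) than in siCtl (1.46, difference -0.41, SE 0.085, adjusted p = 0.0262). Of the common beta-catenin target genes, 5 of 12 were higher in siGATA6 and 6 in siCtl, with 0 lower in each. These included NKD2, another feedback inhibitor gene (log2FC 1.90 in siGATA6 and 1.32 in siCtl), and in siCtl the Wnt inhibitor gene APCDD1 (1.24), while AXIN2 was lower in both.

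At 4 h of DEX in DMSO cells, 15 of 62 were higher and 4 lower (12.5% of all genes called, median log2FC 0.049, against -0.0056 for all genes), with NKD2 (log2FC 2.83, SE 0.24, adjusted p = 2.5e-08), APCDD1 (2.46) and the WNT5A receptor gene ROR1 (1.52) among those higher. At 24 h, 10 were higher and 10 lower (25.6% of all genes, median log2FC -0.054, against -0.019 for all genes), and FRZB, which encodes a secreted Wnt antagonist related to SFRP1, rose most of those named (log2FC 4.77, SE 0.32, adjusted p = 7.73e-10). In BRM014 cells DEX raised 9 and lowered 3 at 4 h (6.12% of all genes called) and raised 12 and lowered 7 at 24 h (13.8%), with FZD7 at 2.04 and 1.68 on the log2 scale. The DEX effect on FRZB was lower with BRM014 than with DMSO at 24 h (difference of log2FC -2.61, SE 0.52, adjusted p = 0.00332), and so was that on ROR1 (-1.67), while that on FZD7 was higher (1.89).

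BRM014 itself changed 8 pathway genes upward and 5 downward at 4 h (8.68% of all genes called), with FGF18 (log2FC -2.18, SE 0.20, adjusted p = 5.33e-07), CCND1, the cyclin D1 gene (-1.15), and FZD2 (-1.12) lower. At 24 h it changed 15 upward, such as APC2 (log2FC 2.40, SE 0.16, adjusted p = 8.2e-10) and the DKK1 receptor gene KREMEN1 (1.69), and 14 downward, such as FGF18 (-2.30) and APCDD1 (-1.77), where 31.5% of all genes were called (median log2FC 0.11, against 0.011 for all genes). With siGATA6, 15 were higher and 7 lower with DEX (all genes 22.6%), and 10 and 7 with vehicle (23.7%, median log2FC 0.068, against 0.011 for all genes). LRP5, the co-receptor gene whose product DKK1 binds, was higher with DEX (log2FC 0.88, SE 0.061, adjusted p = 5.68e-10) and with vehicle (log2FC 0.79, SE 0.061, adjusted p = 2.97e-09). siFRA1 changed 9 of 54 upward and 4 downward with DEX (all genes 12.9%) and 8 and 1 with vehicle (10.8%), with TCF7, a TCF/LEF factor gene, lower in both (-0.97 and -0.75). siJUN changed 3 upward and 2 downward with DEX (all genes 6.57%) and 1 and 2 with vehicle (6.82%), shares near those of all genes. It raised FZD4, the norrin receptor gene, in both (1.01 and 1.32), and FZD7 (-0.65 and -0.69) and TCF7 (-0.64 and -0.39) were lower in both.

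The genes whose levels followed those of the members most closely were named from Pearson's r of log CPM over libraries, which share their treatments and so give a description only. Over the 12 libraries of the GATA6 experiment DKK1 was most like TMEFF2 (0.970), THBS3 (0.961) and ADAM15 (0.954). Over the 24 libraries of the BRM014 experiment the nearest gene of DKK1 was FUBP1 (0.815), that of WNT5A was PRICKLE1 (0.831), that of RSPO3 was SYTL2 (0.936) and that of NDP was DAB2 (0.960). SYTL2 was also among the nearest genes of NDP (0.951), and IFIT1, an interferon response gene, among those of RSPO3 (0.933).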

How the data were processed

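RNA was sequenced from 54 BT549 libraries in 18 groups of 3. The deposited files hold raw read counts per gene. Reads were counted with featureCounts on GRCh38, and bcl2fastq, SAMtools and DESeq2 were also used, per the submitters' processing notes, and the AP-1 counts came from primary STAR alignments, per the file headers. For the versions, annotation and strand setting, the sources used here give nothing. Library numbers in the AP-1 file headers differ from the deposited ones, and samples were assigned by the labels. The MDA-MB-231 part of the study was not analysed here.

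Each experiment was fitted apart with edgeR 4.0.16 (R 4.3.3, limma 3.58.1): TMM scaling, filterByExpr, 1 mean per group and robust quasi-likelihood tests. Genes tested numbered 13897 (GATA6), 14547 (BRM014) and 13658 (AP-1). P-values were adjusted by Benjamini-Hochberg over all genes of a comparison, with a threshold of 0.05. The SE is the log2 fold change divided by the square root of F. The same code was tested on simulated data. Replicate pairs of a group differed by 3.17 to 113.5 times the sampling variance (chi-square per degree of freedom), so none was a repeated deposit.

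The alternatives were DESeq2 1.42.0, its size factors in edgeR, library totals alone, no filter on low counts, only the groups of the comparison, a replicate block, and each library left out in turn. Gene positions come from GENCODE v29. The members and lists were chosen with earlier results of these data known. Named are all members, the targeted genes, per comparison the up to 4 called pathway genes that changed most and reached 5 CPM in 1 group of the pair, and the 3 most alike genes of DKK1, RSPO3, NDP and WNT5A, of which the text gives a part.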

Additional observations from a re-analysis of the deposited data

Results flagged for a closer look

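The results listed here are those in which the effect of a treatment differed between backgrounds or times by a test of the difference itself (edgeR's quasi-likelihood test, adjusted over all genes). Between siGATA6 and siCtl cells the DEX effect was higher for DKK1 (1.38 on the log2 scale) and lower for WNT5A (-0.62). Between BRM014 and DMSO cells at 4 h it was higher for DKK1 (0.90) and lower for DKK3 (-1.19). At 24 h it was higher with BRM014 for DKK1 (0.88), RSPO3 (2.56), WNT5B (0.78) and SFRP1 (0.68).

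Between 24 h and 4 h the DEX effect in DMSO cells was lower for DKK3 (-1.16), RSPO3 (-3.36), NDP (-2.54), WNT5A (-1.15) and SFRP1 (-0.86). The BRM014 effect was lower at 24 h than at 4 h for DKK3 (-1.29), RSPO2 (-1.01) and SFRP1 (-0.60).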

How the results depend on the processing

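Of 3658 recomputed member results, 3521 kept their side of the threshold (uncalled ones whatever their sign), 82 lost the call, 55 gained it and 0 of the called ones changed sign. With only the groups of the comparison, called members numbered 5 in place of 8 for DEX at 24 h in DMSO cells, 2 in place of 4 for BRM014 at 24 h with DEX, and 2 in place of 1 for siJUN with vehicle, which DESeq2 also put at 2. Leaving out 1 library gave 0 to 2 for BRM014 at 4 h, 2 to 5 for the change of the BRM014 effect over time, and 1 to 3 for siJUN with DEX.

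Same-numbered libraries deviated together more than others. Their median r was 0.156 in the GATA6, 0.148 in the BRM014 and 0.238 in the AP-1 experiment. For other pairs it was -0.0724, -0.0781 and -0.0783. Same-numbered pairs had r over 0.1 in 16 of 18, 54 of 84 and 36 of 45 cases, with minima of 0.0897, -0.187 and 0.0539. Since r over 0.1 did not hold for every pair and the labels name no shared batch or day, the numbers were not taken to pair libraries. Calls that the block adds depend on this choice. As a hint from the data, 12 of 12, 21 of 24 and 17 of 18 libraries correlated best with their own number. With the replicate block, 25 member calls were gained and 0 lost. Among them were 5 in place of 3 for the change of the BRM014 effect over time (RSPO3 and WNT5B gained). In the AP-1 experiment there were 7 in place of 4 for DEX in siCtl and 5 in place of 3 in siFRA1. There were 5 in place of 1 for siJUN with vehicle, 3 in place of 1 with DEX, and 1 in place of 0 for the siJUN interaction (DKK1, adjusted p = 0.0103). The block also gained SFRP1 for DEX at 2 h in siCtl (adjusted p = 0.0154) and RSPO3 for siGATA6 with DEX (0.0131). It gained WNT5A for DEX at 4 h in DMSO cells (0.0240), WNT2B for BRM014 at 24 h (0.0280) and RSPO3 for BRM014 at 24 h with DEX (0.0251). In the AP-1 experiment DKK1 was among the calls gained for DEX in siCtl and siFRA1, for siFRA1 with and without DEX and for siJUN with vehicle. RSPO3 was gained for DEX in siCtl and siJUN and for both siRNAs with and without DEX. Others gained were WNT5B for DEX in siFRA1, DKK3 for DEX in siCtl and for siJUN with DEX. WNT5A was gained for siFRA1 with vehicle, and NDP and AXIN2 for siJUN with vehicle. Over all genes the block added 205 calls to the 47 for the siGATA6 interaction (in all 88 with DESeq2, 95 without the filter, 30 without siGATA6 with DEX replicate 2) and gave 1498 in place of 952 for the BRM014 interaction at 24 h, 1945 in place of 1294 for the change of the DEX effect over time, and in the AP-1 experiment 1330 in place of 752, 1119 in place of 673 and 1436 in place of 777 for DEX in siCtl, siFRA1 and siJUN. For siFRA1 it gave 3621 in place of 1759 with DEX and 3357 in place of 1477 with vehicle, for siJUN 2343 in place of 898 and 2550 in place of 932, and for both interactions 6 in place of 0.

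With only the groups of the comparison, all-gene calls numbered 2868 in place of 1825 for DEX at 4 h and 1788 in place of 3717 at 24 h in DMSO cells, 884 in place of 2001 for DEX at 24 h in BRM014 cells, 2933 in place of 5169 for BRM014 at 24 h with DEX, 533 in place of 952 for its interaction and 536 in place of 898 for siJUN with DEX. Left-out libraries lowered the count to between 751 and 832 for BRM014 at 4 h (from 1262; DMSO replicate 1 or 3 or BRM014 replicate 3), to 802 to 910 for siFRA1 with vehicle (siCtl replicate 1 or 2 or siFRA1 replicate 1), to 444 to 621 for siJUN with vehicle (any siCtl library or siJUN replicate 1), to 933 to 1088 for siFRA1 with DEX and to 454 to 534 for siJUN with DEX (siCtl replicate 1 or 2 or replicate 1 of the siRNA). With library totals alone the median of all genes moved to 0.147 for BRM014 at 24 h and 0.138 for the change of its effect. The share of calls that were higher was then 38.9% against 50.1% for DEX in siGATA6, 39.7% against 54.8% in siCtl, 47.8% against 61.9% at 4 h in DMSO and 42.2% against 54.9% at 24 h in BRM014 cells. It was 67.3% against 47.9% for BRM014 at 24 h, 58.7% against 42.0% at 4 h and 62.3% against 49.6% at 24 h with DEX, 45.9% against 29.4% and 57.3% against 30.6% for the changes of the DEX and BRM014 effects over time, 50.8% against 62.8% for DEX in siCtl of the AP-1 experiment and 61.9% against 47.9% for siFRA1 with DEX. The causes were not tested. Depth limits RSPO3 and NDP at 24 h with DEX, where libraries held 1 to 27 counts.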
